A study of Citrus maxima with 12 samples.

Results

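Diseased fruit of the pomelo cultivars Jinlan and Jinsha was compared gene by gene. The comparison rests on 6 of the 12 libraries of the series, chosen by their labels: Jinlan disease 1 to 3 and Jinsha disease 1 to 3. All 6 were made from total RNA of fruit whose treatment is given as disease. The labels name neither the agent, the age of the fruit nor the part of the fruit that was sampled, and they do not say whether the 3 libraries of a cultivar came from separate fruits or trees. The p-values below therefore set a difference against the spread between these libraries, which may be technical in part. The remaining libraries are Taoxi control and Taoxi disease, with 3 each, and diseased Taoxi serves below as an outside reference. Since no control libraries of these cultivars were used here, a lasting difference between the cultivars and a difference in their response to disease cannot be told apart.

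Pomelo (Citrus maxima) is one of the ancestral citrus species, and the series concerns black spot disease of Jinggang honey pomelo. Citrus fruit meets fungal attack with cell wall reinforcement, phenolic and flavonoid compounds, and proteins that act on the fungus, and cultivars are known to differ in these. In diseased tissue, transcript levels reflect the cultivar, the course of the disease and the mixture of cells that was sampled. In bulk samples such as these, fewer cells of a type and less RNA per cell cannot be told apart. The deposited table pairs none of its gene IDs with a name or a function. Genes are therefore described by ID, by level, by size of difference and by their place in the ID numbering, and the fruit label could not be checked against marker genes.

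The values are FPKM (fragment counts corrected for gene length and library size), and the read totals behind them are unknown. Summed FPKM ranged from 560349 to 568564 over the 6 libraries, and 21772 to 22150 IDs were above 0. Replicates correlated at 0.991 to 0.994 in Jinlan and at 0.991 to 0.993 in Jinsha (Pearson's r across genes, which are not independent replicates), and libraries of different cultivars at 0.953 to 0.957. No library stood apart from its group. The median SD between replicates was 0.0854 log2 units in Jinlan and 0.095 in Jinsha.

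About as many expressed genes passed the test between the cultivars as did not, in most cases with a small difference. Of 16607 genes tested, 9257 (55.7%) passed, with 6186 (37.2%) higher and 3071 (18.5%) lower in Jinlan (limma on the 6 libraries, Benjamini-Hochberg adjusted p below 0.05). The share that passed was 47.4% to 52.1% when 1 of the 6 libraries was left out, lowest without Jinlan 1. The median fold among the passing genes was 1.32 for those higher and 1.46 for those lower in Jinlan. Differences of at least 2-fold were found at 900 genes (5.42%), and here the balance was the other way round, with 307 (1.85%) higher and 593 (3.57%) lower in Jinlan. At 4-fold or more, 14 genes were higher and 70 lower. On the log2(FPKM + 1) scale no gene was 8-fold or more higher in Jinlan, while 10 were 8-fold or more lower. The limit was close: Cg7g000360 was higher in Jinlan by 2.97 log2 units, and by 8.83-fold in mean FPKM. The 3 libraries of one cultivar lay wholly above or below those of the other at 63.2% of all genes tested, and at 897 of the 900 genes past 2-fold. At 136 of the 307 genes higher and at 318 of the 593 genes lower in Jinlan, the nearest libraries of the 2 cultivars were themselves at least 2-fold apart. Folds are taken from log2(FPKM + 1), where weakly expressed genes appear to change less than their FPKM does.

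**Figure D1:**
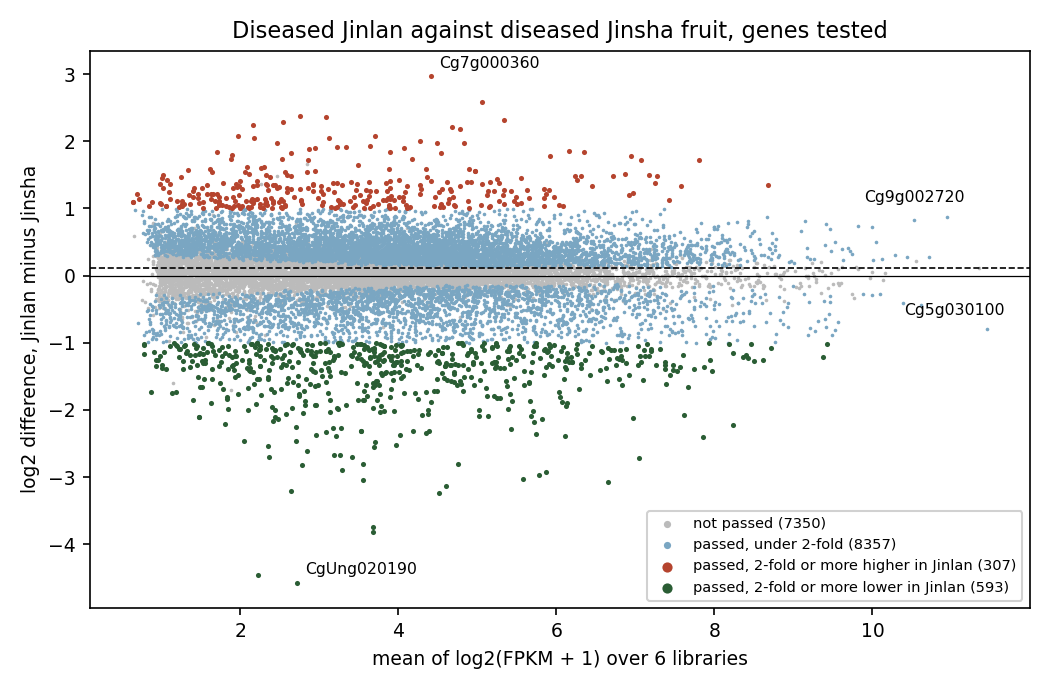
Each point is 1 of 16607 genes tested, with the mean of log2(FPKM + 1) over the 6 libraries on the x axis and the log2 difference of Jinlan minus Jinsha on the y axis. The dashed line is the median of all genes, 0.12; green points (593 genes lower in Jinlan by 2-fold or more) outnumber red ones (307 higher) and reach further from 0.

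Both tails depended on how the libraries were scaled, and the balance of small differences did so most. The typical gene was higher in Jinlan by 0.12 log2 units (median over the genes tested). Median-ratio scaling, which sets the typical gene to no difference by its construction, took the median to 0.003. Relative to that shift, 8424 genes (50.7%) passed, of which 4028 (24.3%) were higher and 4396 (26.5%) lower in Jinlan, so that 47.8% of the passing genes were higher, against 66.8% without scaling and 55.2% with upper-quartile scaling. The excess of genes lower in Jinlan past 2-fold was present in each of the 5 scalings tried, and 221 genes higher and 587 lower passed at 2-fold in all 5. With median-ratio scaling the counts past 2-fold were 221 (1.33%) and 743 (4.47%).

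**Figure D2:**
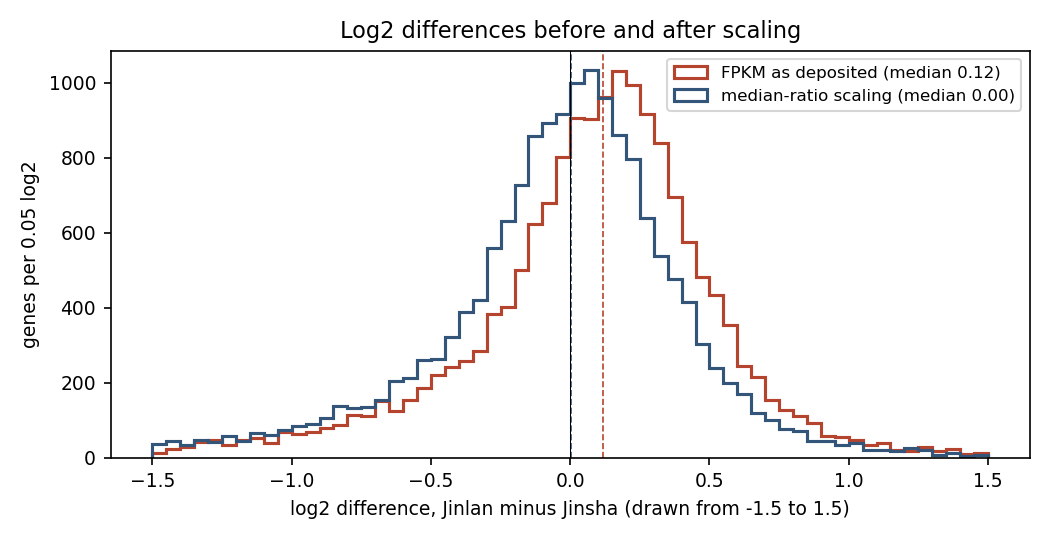
The lines are histograms of the log2 difference of Jinlan minus Jinsha over the genes tested, in steps of 0.05 log2, for FPKM as deposited and after median-ratio scaling. Scaling moves the whole distribution down, from a median of 0.12 to 0.003, and the longer tail stays on the side of genes lower in Jinlan.

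The share of the most abundant genes was compared as well. The 1000 most abundant IDs of a library held 46.3%, 45.6% and 46.0% of its FPKM in Jinlan 1 to 3 and 46.6%, 47.3% and 47.8% in Jinsha 1 to 3, without overlap. The 10 most abundant differed in the opposite direction, with 3.27% to 3.29% in Jinlan and 2.99% to 3.23% in Jinsha. The 100 most abundant overlapped, with 14.3% to 14.6% and 14.3% to 15.2% (exact permutation test, two-sided, p = 0.5). The median gene tested stood at 13.0, 13.2 and 13.1 FPKM in Jinlan, against 12.5, 12.4 and 12.1 FPKM in Jinsha. In Jinlan 16440 to 16553 IDs were at 1 FPKM or more, and in Jinsha 16252 to 16331. These last 2 measures restate the shift of the typical gene. The shares of the 1000 and of the 10 most abundant each gave p = 0.1, the smallest that an exact permutation test of 3 against 3 libraries allows (two-sided). The 10469 genes with the higher mean in Jinlan exceeded Jinsha by 74131 FPKM in all, and the 6138 with the lower mean fell short by 71490 FPKM. Since summed FPKM was nearly the same in both cultivars, these sums had to be nearly equal. The 100 largest differences made up 24.0% of the former sum and 33.0% of the latter. The part of these shares in the balance of calls was not tested.

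At many genes the interval kept the difference between these libraries inside 1.5-fold, which a p above the threshold alone does not show. The 95% interval of the log2 difference, taken for each gene on log2(FPKM + 1), lay inside 1.5-fold either way at 10472 genes (63.1%). With a pseudocount of 0.1 it did so at 8983 genes. Of the 10472, 3942 passed the test all the same, with a small difference. It lay wholly beyond 1.5-fold at 1446 genes, 610 higher and 836 lower in Jinlan. Of the 7350 genes that did not pass, 6530 had an interval inside 1.5-fold, and at the other 820 the data do not separate a difference of that size from none.

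Abundant genes took part in the excess on the Jinsha side. Among 1097 genes with a mean of 100 FPKM or more, 66 (6.02%) were lower and 13 (1.19%) higher in Jinlan by at least 2-fold. Among 8428 genes from 10 to 100 FPKM the shares were 3.62% and 1.53%, and among 7082 genes below 10 FPKM they were 3.13% and 2.33%. With median-ratio scaling they were 8.2% and 1.09%, 4.51% and 1.07%, and 3.85% and 1.68% in the same order. The most abundant transcripts were largely common to both cultivars: 80 of the 100 highest in Jinlan were also among the 100 highest in Jinsha. These 80 differed by log2 values from -1.01 to 0.88, and 66 of them by less than 1.5-fold.

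The 593 genes lower in Jinlan took up a larger part of the summed FPKM than the 307 higher, by far in Jinsha and by less in Jinlan. Summed over the 593, Jinlan 1 to 3 held 2.43%, 2.48% and 2.38% of their FPKM in them, and Jinsha 1 to 3 held 6.27%, 6.57% and 6.96%. The 307 genes summed to 1.83% in each Jinlan library and to 0.665%, 0.667% and 0.701% in Jinsha. These sums restate the calls and carry no test. Diseased Taoxi, which had no part in the calls, held 4.88%, 4.54% and 4.83% in the former set, between both cultivars, and 2.16%, 2.20% and 2.20% in the latter. The highest gene of the latter set had a mean of 2400 FPKM in Taoxi. The typical gene of the former set had a mean of 7.48 FPKM in Jinlan, 22.6 FPKM in Jinsha and 14.5 FPKM in Taoxi (medians over genes). That of the latter had 12.9, 4.56 and 8.54 FPKM, and at the median Taoxi lay between both cultivars in each set. Most single genes did not follow the medians. On the log2(FPKM + 1) scale Taoxi lay beyond the Jinlan mean at 31.4% and beyond the Jinsha mean at 29.0% of the 593. Among the 307 these shares were 32.9% and 29.0%.

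Cg7g000360 had the largest log2 difference among genes higher in Jinlan. It stood at 58.5, 59.2 and 57.9 FPKM in Jinlan 1 to 3, against 5.90, 7.60 and 6.39 FPKM in Jinsha 1 to 3. All Jinlan libraries were high and all Jinsha libraries low, with a wide gap between them. The log2 difference was 2.97 ± 0.08 (SE, limma adjusted p = 7.67e-07), and 2.85 with median-ratio scaling. Diseased Taoxi stood at 83.0 ± 7.9 FPKM (SD, n = 3), on the Jinlan side. The IDs just before and just after it in the numbering were also higher in Jinlan, at log2 differences of 1.48 ± 0.06 and 0.71 ± 0.06 (SE, limma adjusted p = 1.87e-06 and 4.65e-05).

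Cg9g002720 had the largest gain in mean FPKM. Its values were 2717, 2782 and 2522 FPKM in Jinlan and 1262, 1430 and 1703 FPKM in Jinsha, without overlap. By mean FPKM it was the second most abundant transcript of Jinlan and ranked 6 in Jinsha. In Jinlan 1 and Jinlan 2 taken singly it was the most abundant. The log2 difference was 0.88 ± 0.12 (SE, limma adjusted p = 0.000455), 0.75 with median-ratio scaling, and so stayed under 2-fold. Diseased Taoxi stood at 3198 ± 126 FPKM (SD, n = 3), above both cultivars. The ID before it was far less abundant, at 13.1, 13.7 and 12.4 FPKM in Jinlan against 3.04, 2.71 and 2.61 FPKM in Jinsha, a log2 difference of 1.89 ± 0.08 (SE, limma adjusted p = 2.50e-06).

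CgUng020190 had the largest log2 difference in the other direction. It was nearly silent in Jinlan, at 0.304, 0.448 and 0.311 FPKM, and reached 7.96, 48.0 and 74.3 FPKM in Jinsha. The Jinsha libraries were all above those of Jinlan but spread widely among themselves, with Jinsha 1 far below the others. The log2 difference was -4.57 ± 0.65 (SE, limma adjusted p = 0.000573), and -5.49 ± 0.17 without Jinsha 1 and -3.95 ± 0.59 without Jinsha 3 (limma adjusted p = 3.82e-06 and 0.00127). With pseudocounts of 0.1 and 0.5 the log2 difference was -6.09 and -5.20. Since 1 library or the pseudocount moves the value this far, its size is less certain than its direction. Diseased Taoxi stood at 73.3 ± 3.3 FPKM (SD, n = 3), on the Jinsha side.

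Cg5g030100 had the largest fall in mean FPKM, and was the most abundant transcript of Jinsha. It stood at 2125, 2092 and 2145 FPKM in Jinlan, where it ranked 3 by mean FPKM, against 3436, 3868 and 3779 FPKM in Jinsha. The groups did not overlap, and the log2 difference was -0.80 ± 0.09 (SE, limma adjusted p = 0.000193), or -0.93 with median-ratio scaling. Diseased Taoxi stood near Jinlan, at 2250 ± 258 FPKM (SD, n = 3). The next ID in the numbering was listed at 0 FPKM in each Jinlan library, and Jinsha 1 to 3 held it at 42.2, 26.7 and 7.75 FPKM. Whether reads of one of these neighbours can be counted to the other is not given in the sources used here, so the low values of the second are uncertain.

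**Figure D3:**
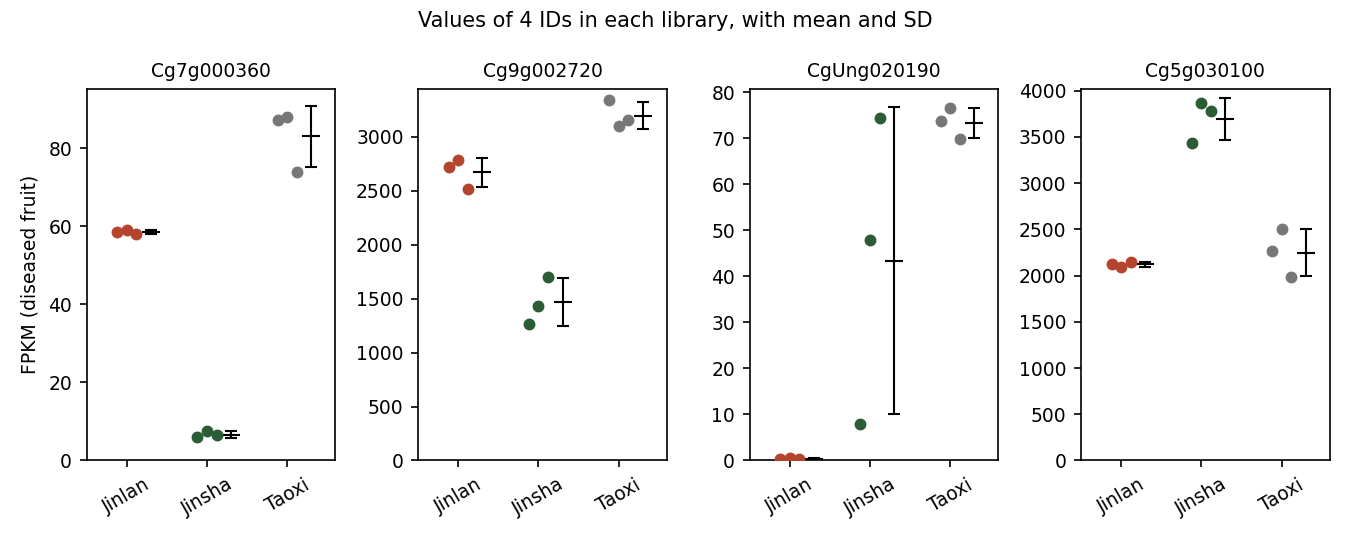
FPKM of 4 IDs in each library of diseased Jinlan, Jinsha and Taoxi fruit, on a linear axis from 0; points are libraries, and the bar beside them gives the mean and SD (n = 3). Jinlan and Jinsha do not overlap at any of the 4, Jinsha spreads from 7.96 to 74.3 FPKM at CgUng020190, and Taoxi lies on the Jinlan side at Cg7g000360 and on the Jinsha side at CgUng020190.

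Genes expressed in one cultivar and listed at 0 in the other were rare. Only 2 IDs of the table combined 0 FPKM in every Jinlan library with 1 FPKM or more in every Jinsha library, and 0 IDs showed the reverse. Both carry the prefix Cg5g; one is the neighbour of Cg5g030100 described above, and the other stood at 2.54, 1.90 and 2.62 FPKM in Jinsha. Most genes tested, 15410, were at 1 FPKM or more in all 6 libraries, and these held 253 of the 307 genes higher and 507 of the 593 genes lower past 2-fold. A further 205 entered the test through the Jinlan libraries only and 133 through the Jinsha libraries only. Such genes had to differ, and they added 31 genes higher and 48 lower past 2-fold.

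Diseased Taoxi was about as often nearer to Jinlan as to Jinsha at these genes. For 162 of the 307 genes higher in Jinlan past 2-fold (52.8%), the Taoxi mean on the log2(FPKM + 1) scale was nearer to Jinlan, and for the other 145 it was nearer to Jinsha. Among the 593 genes lower in Jinlan, Taoxi was nearer to Jinlan at 312 (52.6%). Over all genes tested the share was 51.6%. Leaving out any 1 of the 9 libraries, with the calls refitted where it was a Jinlan or Jinsha library, gave 50.2% to 53.8% for the genes higher and 50.3% to 54.2% for the genes lower in Jinlan. Taoxi was within 2-fold of Jinlan alone at 178 of the 593 genes, within 2-fold of Jinsha alone at 165, of both at 109 and of neither at 141. Among the 307 the counts were 88, 89, 58 and 72. Of the 14 genes higher in Jinlan by 4-fold or more, Taoxi was nearer to Jinlan at 11, and of the 70 genes lower by 4-fold or more it was nearer to Jinsha at 40. Of the 10 among these that were lower by 8-fold or more it was nearer to Jinsha at 7. These shares are given without a test. At the 10, Taoxi was within 2-fold of Jinsha at 1 and of Jinlan at none, above both cultivars by at least 2-fold at 4 and below both at 2.

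**Figure D4:**
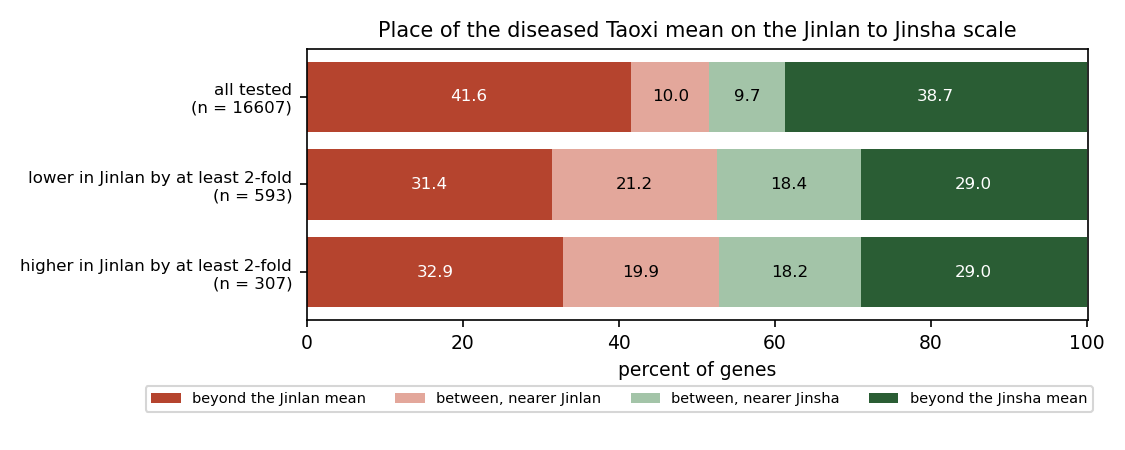
Bars show the percent of genes by the place of the diseased Taoxi mean relative to the Jinlan and Jinsha means, on the log2(FPKM + 1) scale, for the genes past 2-fold in each direction and for all genes tested. In both sets past 2-fold the parts on the Jinlan side (52.8% and 52.6%) and on the Jinsha side are nearly equal; over all genes the cultivars lie closer together, so Taoxi falls outside them more often.

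The differences were spread over all classes of ID. Between 4.78% and 6.11% of tested genes were past 2-fold in each of the 9 numbered prefixes, Cg1g to Cg9g, beside 5.12% of 996 NewGene IDs and 3.71% of 404 CgUng IDs. In all 11 classes more genes were lower than higher in Jinlan past 2-fold. The balance was closest in Cg1g, with 37 higher and 40 lower, and a wide one was that of Cg6g, with 15 higher and 53 lower. With median-ratio scaling the counts were 26 and 53 in Cg1g, 12 and 69 in Cg6g, and 13 and 76 in Cg7g.

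Within a prefix, the ID that followed a gene past 2-fold was itself past 2-fold more often than tested IDs in general. Whether the numbers follow positions along a chromosome is not given in the sources used here. After a gene past 2-fold, the next tested ID was also past 2-fold in 119 cases of 900 (13.2%), against 5.42% of all tested IDs, and in 94 of the 119 it differed in the same direction. With median-ratio scaling the next ID was past 2-fold in 126 cases of 963 (13.1%, against 5.8%), with 108 in the same direction. These counts carry no test, since neighbouring genes may be copies of one another and may share reads. Runs of 3 or more neighbouring tested IDs, all past 2-fold in one direction, numbered 16 and held 52 genes. Of these runs 15 were lower in Jinlan and 1 was higher, where single genes past 2-fold were also more often lower (593 against 307). Each of the 52 genes was also past 2-fold with median-ratio scaling. That scaling moves log2 differences down, so the genes lower in Jinlan could hardly fail this check.

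Without scaling the longest runs had 4 genes, and all 4 of these runs were lower in Jinlan. With median-ratio scaling the longest run had 5 genes, and of 18 runs of at least 3 genes 17 were lower in Jinlan. The runs described here are those without scaling. In the run with the prefix Cg5g, the means in Jinlan were 18.6 ± 1.4, 215 ± 10.4, 3.6 ± 0.43 and 34.9 ± 2.7 FPKM, and in Jinsha 155 ± 30.4, 500 ± 59.9, 9.19 ± 2.19 and 119 ± 11.2 FPKM (SD, n = 3). Diseased Taoxi was higher than both at each of the 4, at 207 ± 4.9, 903 ± 75.5, 63.3 ± 7.6 and 285 ± 4.0 FPKM (SD, n = 3). One of the runs with the prefix Cg2g had the opposite place of Taoxi. Its 4 genes stood at 9.20 ± 0.48, 3.20 ± 0.27, 2.40 ± 0.11 and 1.56 ± 0.30 FPKM in Jinlan, against 71.4 ± 14.2, 26.6 ± 5.7, 16.9 ± 3.8 and 4.83 ± 0.56 FPKM in Jinsha (SD, n = 3). In diseased Taoxi they were lower than in both, at 1.76 ± 0.52, 0.387 ± 0.184, 0.289 ± 0.102 and 0.417 ± 0.30 FPKM (SD, n = 3). The log2 differences in this run went from -2.81 to -1.19 and in the Cg5g run from -2.97 to -1.13.

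The other run with the prefix Cg2g and the run with the prefix Cg4g gave a mixed place of Taoxi. In the former, Taoxi was at 2.18 ± 0.60, 38.7 ± 12.5, 1.28 ± 0.34 and 15.6 ± 3.8 FPKM, against 8.60 ± 1.14, 16.8 ± 1.7, 10.8 ± 2.2 and 9.89 ± 0.40 FPKM in Jinsha (SD, n = 3). Neighbouring genes that differed alike between Jinlan and Jinsha therefore stood on different sides in Taoxi. In the Cg4g run the most abundant gene was at 109 ± 10.9 FPKM in Jinlan, 292 ± 51.8 in Jinsha and 181 ± 30.8 in Taoxi (SD, n = 3), and its other genes were lower in Taoxi than in Jinlan. The single run higher in Jinlan had 3 genes with the prefix Cg1g, at 4.32 ± 0.29, 12.2 ± 0.78 and 6.16 ± 0.71 FPKM in Jinlan and 0.834 ± 0.110, 3.0 ± 0.24 and 1.45 ± 0.32 FPKM in Jinsha (SD, n = 3).

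**Figure D5:**
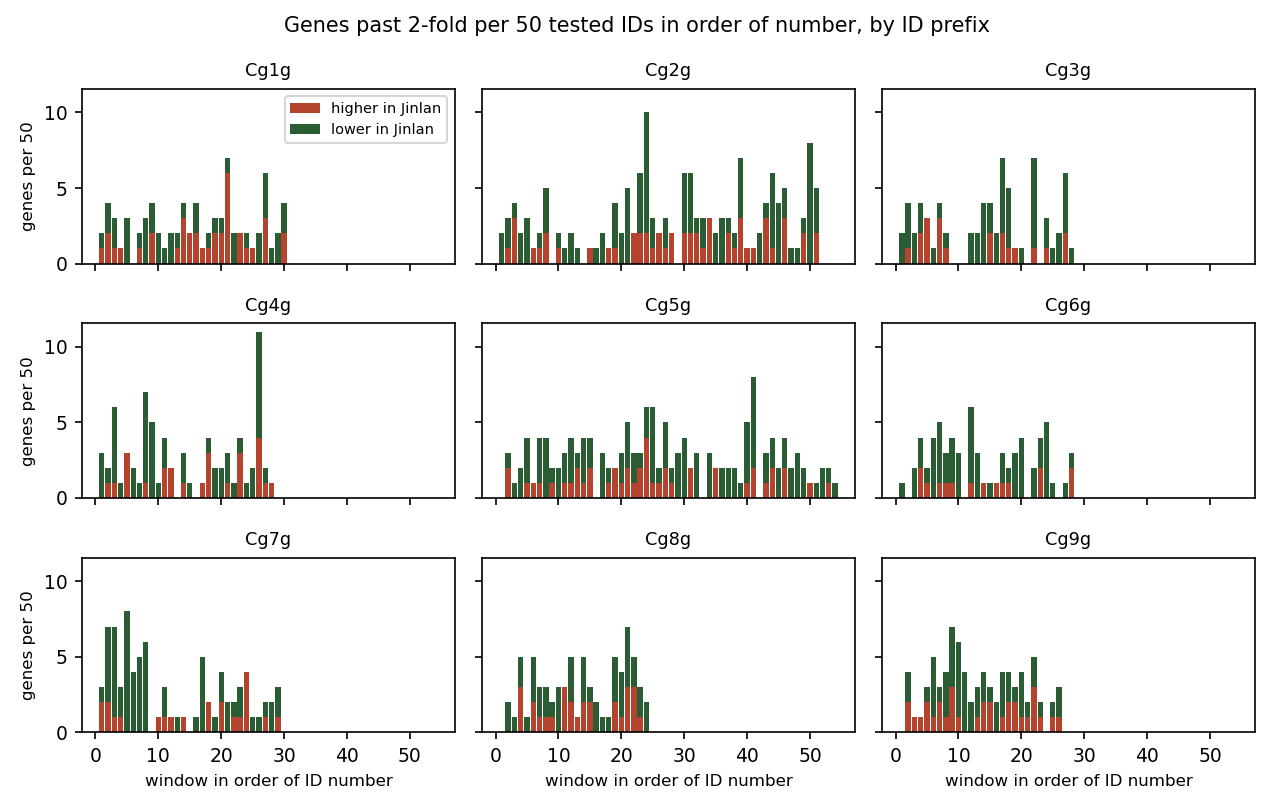
Number of genes past 2-fold in each block of 50 tested IDs, taken in order of ID number within each numbered prefix; red is higher and green lower in Jinlan. Blocks held from 0 to 11 such genes with a median of 2, and 25 of the 299 blocks held none.

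Replicates of a cultivar spanned 2-fold or more at 144 genes tested in Jinlan and at 104 in Jinsha. In one or both cultivars this was so at 211 genes (1.27%), and at 25 (2.78%) of the 900 genes past 2-fold. With a pseudocount of 0.1 it was so at 3.58% of all genes tested and at 74 (8.22%) of the same 900. That pseudocount gave 585 genes higher and 783 lower in Jinlan past 2-fold, against 307 and 593 with a pseudocount of 1. The excess of genes lower in Jinlan thus remained but was smaller in proportion. Low genes count with nearly their full fold at the smaller pseudocount. When the spread was estimated over all 12 libraries, Taoxi control included, the passing genes fell to 2983 higher and 1407 lower, while a fit of the 9 diseased libraries gave 5722 and 2766.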

How the data were processed

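FPKM values of 32863 gene IDs were deposited by the authors in 1 table. How reads were aligned and counted, and on which genome build and annotation, is not given in the sources used here. Per the labels' protocols, a Qiagen RNeasy kit served for the RNA and a SMARTer mRNA-seq kit for the libraries. Columns were matched to the 12 labelled samples by title, and 6 columns that match none were not used.

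A gene was tested if at least 3 of the 6 Jinlan and Jinsha libraries held it at 1 FPKM or more (16607 IDs; 8628 had no signal in any of the 6). Unscaled log2(FPKM + 1) values were fitted to these 6 libraries alone with limma 3.58.1 in R 4.3.3 (mean-variance trend, two-sided, Benjamini-Hochberg over all genes tested). Intervals are 95% intervals of that fit. Whole reads could not be recovered: where both replicates of a pair were under 0.3 FPKM, no bin of 0.02 in their log2 ratio held over 1.87% of IDs (6 pairs), so depth is unknown and no counting interval is given. No 2 libraries were identical, and 16 IDs above 0 shared all values with another ID, none of them tested. The fit was tested on simulated data.

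Named by rule, in each direction, were the ID with the largest log2 difference and the one with the largest difference in mean FPKM, among genes that passed with and without median-ratio scaling and whose groups did not overlap. Lists fixed as search terms on gene descriptions stayed empty, since no names were at hand. The comparison, rules and alternatives were chosen with earlier results of these data known. Alternatives were other pseudocounts, filters, scalings, sets of libraries in the fit, a replicate block, other variance priors and leaving out each library. Figures were drawn with matplotlib 3.10.9.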

Additional observations from a re-analysis of the deposited data

How the results depend on the processing

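Counts past the threshold in each direction, with and without the 2-fold limit, stayed within 1.5 times the values given above under the alternatives run, with the exceptions that follow. A pseudocount of 0.1 gave 585 genes higher in Jinlan by at least 2-fold, beside 783 lower, a count that stayed within the limit. Median-ratio scaling gave 4028 genes higher, and 1 fit of all 12 libraries gave 2983 higher and 1407 lower. In a fit of 11 libraries, with Taoxi control 1 not among them (added after the data had been seen), 5786 were higher and 2762 lower. Of the passing genes, the part higher in Jinlan was 47.8% with median-ratio scaling, 55.2% with upper-quartile scaling, 57.9% with quantile normalization, 65.6% after rescaling to TPM and 67.9% with all 12 libraries. The median log2 difference was 0.1327 and 0.1266 with pseudocounts of 0.1 and 0.5, 0.0493 with no filter, 0.0032 with median-ratio, 0.0452 with upper-quartile and 0.0590 with quantile scaling. Intervals inside 1.5-fold numbered 17096 with no filter, which adds genes near 0. Counting 5 FPKM as present left 1 ID at 0 in Jinlan only, and runs of at least 4 neighbouring IDs numbered 4. With a pseudocount of 0.1 the median replicate SD was 0.0941 in Jinlan and 0.1065 in Jinsha. The cause of the other moves was not tested.

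Leaving out 1 library took the passing genes from 55.7% of those tested to under 50% in 4 of 6 cases, and 1 fit of all 12 libraries took them to 26.4%, or 51.5% without Taoxi control 1. Leaving out 1 library left 5245 to 5838 genes higher and 2625 to 3025 lower, 292 to 328 higher and 568 to 610 lower by at least 2-fold, a share higher of 64.4% to 67.4%, a median log2 difference of 0.1061 to 0.1289, and 9675 to 10103 intervals inside 1.5-fold. The 4 named IDs kept direction and passed in each of the 20 alternatives, with the highest adjusted p of limma at 0.00747 (Cg5g030100, no filter).

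The replicate numbers are shared by the labels, but same-numbered libraries did not deviate together: the deviations from the group means correlated at 0.019, -0.164 and -0.071 across genes. With the number as a block 5694 genes were higher and 2916 lower, 310 and 595 of them by at least 2-fold, with 66.1% of passing genes higher, a median of 0.1186 and 10232 intervals inside 1.5-fold. Since FPKM keeps no read totals, what depth limits at low values could not be assessed.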

Other observations

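Genes past 2-fold were unevenly placed in the numbering of the prefix Cg7g. The first 8 blocks of 50 tested IDs held 43 genes past 2-fold among 400 (10.8%), of which 37 were lower and 6 higher in Jinlan. The other 21 blocks of this prefix held 40 among 1050 (3.81%), 24 lower and 16 higher. Over the 270 blocks of the other numbered prefixes 5.49% of genes were past 2-fold, 486 lower and 255 higher. With median-ratio scaling the first 8 blocks held 45 and the other 21 held 43. The division after the eighth block was chosen after the values had been seen, so no test is given.

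Single blocks elsewhere held more. A block of the prefix Cg4g had 11 of its 50 genes past 2-fold, 7 lower and 4 higher, and a block of Cg2g had 10, 8 lower and 2 higher.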
